A study of Mus musculus with 80 samples.

Results

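The cytosolic ribosome of the mouse is built from a large (60S) and a small (40S) subunit, and the genes described here encode its proteins. Members were the rows of the deposited table whose gene symbol has the form of a large-subunit (Rpl, Rplp) or small-subunit (Rps) name, with pseudogene (-ps) and predicted (Gm) names and Rps27l left out. This gave 85 genes of 50365 rows, 53 of the large subunit and 32 of the small. A low-value filter of at least 10 in at least 3 libraries passed 81 of them, 50 large and 31 small, among 21101 genes tested. Rpl10l, Rpl32l, Rpl6l and Rps12l1 did not pass. Some ribosomal protein genes carry other names and are therefore not among the members: Rpsa, Fau and Rack1, for example, are counted with the translation genes.

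The ribosome needs about equal numbers of most of its proteins, and their mRNAs are among the most abundant in a cell. They begin with a run of pyrimidines at the transcription start (a 5′ terminal oligopyrimidine, or TOP, motif), through which mTOR and LARP1 control their translation. Free RPL5 and RPL11, bound with the 5S rRNA, inhibit MDM2 and so stabilise p53 when ribosome assembly fails. Red cell precursors depend strongly on ribosome supply: mutations of RPS19 and other ribosomal protein genes cause Diamond-Blackfan anaemia in humans. Mature reticulocytes have no nucleus and lose their ribosomes as they become red cells.

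RNA came from whole blood of female C57BL/6 mice, drawn by cardiac puncture. VarDR animals had been exposed at a variable, falling dose rate that simulates internal 137Cs, and had received 2 Gy by day 2 (dose rate 1 Gy per day, n = 5), 2.8 Gy by day 3 (0.77 Gy per day, n = 6), 4.1 Gy by day 5 (0.62 Gy per day, n = 6) or 9.7 Gy by day 30 (0.056 Gy per day, n = 6). Acute animals received 2 Gy (bled on day 2, n = 6), 2.8 Gy (day 3, n = 3) or 4.1 Gy (day 5, n = 6) at 0.73 Gy per minute. VarDR shams of days 2, 3, 5 and 30 and acute shams of days 2, 3 and 5 (n = 6 each) received no dose. All groups share the strain, the sex, globin removal and depletion of ribosomal RNA. The labels do not say whether a library is 1 mouse, so p-values measure the spread between these libraries.

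Column totals were 15.9 to 77.7 M units of signal (M, 1000000 units; median 34.5 M), and members held 0.619 to 2.52% of it (median 1.55%). The 7SL RNA alone held 10.6 to 60.02% of a library. The deposited sheet is titled for lung, while its columns carry the titles of the blood samples. In the library where lung markers were highest their log2 values averaged 3.38, while every sham had at least 10.6 for B cell markers and 14.3 for haemoglobin. The VarDR 4.1 Gy library of day 5, replicate 6, stood apart: its members summed to 149 k (k, 1000 units), against 440.4 to 586 k in the other 5 libraries of its group. Counts and named genes of VarDR day 5 are therefore given with and without it. In 20 libraries liver transcripts exceeded 0.5% of the signal.

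Levels are the deposited signal after rescaling all libraries to equal medians of ratios, in k units unless a sentence gives plain units. Differences are irradiated minus sham of the same exposure type and day, on the scale log2(value + 1), with the standard error (SE). A member was called where limma's p, adjusted over all 21101 genes by the Benjamini-Hochberg method, was under 0.05. The scaling matters for the direction of the whole family. Deposited values of acute irradiated blood exceeded those of acute shams over most genes: the median log2 difference of all genes as deposited was 0.50 on day 2, 1.20 on day 3 and 0.88 on day 5. Values as deposited are therefore given beside the rescaled ones. Whole blood is a mixture, so fewer cells of a type and less RNA per cell cannot be told apart in any of these values.

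In unirradiated blood the members spanned several orders of magnitude per length of transcript. Rpl41, which encodes a very short basic protein at the interface of the subunits, led with 68.8 k units per kilobase on average over the 42 shams. Rps29 followed with 36.2, Rps27 with 31.6, Rplp0 with 30.9, Rplp1 with 30.3, Rps24 with 30.3 and Rplp2 with 26.0 k units per kilobase. At the low end of the tested members stood Rpl12, Rpl5, Rpl27 and 3 paralogs. Those paralogs were Rps4l, Rpl3l and Rpl39l, with 0.0461, 0.00563 and 0.00391 k units per kilobase. Signal per kilobase was thus unequal across genes for proteins most of which the ribosome holds in equal number. It depends on the annotated transcript length, which was 5130 bases for Rps15a and 3706 for Rps20, and on how reads were assigned. Reads of many members can be shared with processed pseudogenes: rows with -ps names held 95.5% of the joint signal for Rpl27, 93.7% for Rps12, 89.1% for Rpl10 and 49.2% for Rps23. Values of these 4 genes are uncertain for that reason. Shares from 40.9% down to 12.6% were found for Rpl28, Rps16, Rpl31, Rpl10a, Rpl36a and Rpl15, so some uncertainty holds for them too. Pseudogenes with Gm names were not counted in these shares.

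RefSeq promoter windows on GRCm38.p6, from 250 bases before to 50 after each start, were matched for 62 of the 85 members. A run of at least 8 C or T letters on the gene strand that overlapped the 10 bases on either side of the start was found in 29 of 62 members (46.8%), against 16.1% of 27025 genes with a window. CTTCCG, searched on both strands of the 300 bases and part of sites bound by ETS factors such as GABPA, was found in 64.5% of members, against 18.8% of all genes. GCCATC, part of YY1 sites, was found in 25.8% of members, against 15.9%, and TATAAA in 12.9%, against 15.7%. The sequences below cover 60 bases before to 15 bases after the annotated start. They are shown for genes that moved farthest from the rest of the family in both exposure types (Rplp0, Rplp2, Rpl41, Rpl39, Rpl38 and Rps12) and for 3 that moved the other way or stayed near the family's middle (Rpl14, Rps6 and Rps19). Capitals mark the longest unbroken run of C and T near the start, as far as it lies within the printed bases.
Rplp0, chr5:115559407-115559481, plus strand: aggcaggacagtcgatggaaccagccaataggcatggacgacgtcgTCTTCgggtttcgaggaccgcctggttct
Rplp2, chr7:141447591-141447665, plus strand: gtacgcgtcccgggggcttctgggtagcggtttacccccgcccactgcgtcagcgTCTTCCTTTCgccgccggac
Rpl41, chr10:128549154-128549228, minus strand: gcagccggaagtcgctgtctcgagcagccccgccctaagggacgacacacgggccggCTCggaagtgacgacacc
Rpl39, chrX:37085208-37085282, minus strand: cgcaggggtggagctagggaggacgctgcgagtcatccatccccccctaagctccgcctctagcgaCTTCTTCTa
Rpl38, chr11:114668520-114668594, plus strand: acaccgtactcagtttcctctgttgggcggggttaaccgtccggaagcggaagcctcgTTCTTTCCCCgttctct
Rps12, chr10:23787195-23787269, minus strand: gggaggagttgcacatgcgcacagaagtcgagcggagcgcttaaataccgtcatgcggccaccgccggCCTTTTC
Rpl14, chr9:120571457-120571531, plus strand: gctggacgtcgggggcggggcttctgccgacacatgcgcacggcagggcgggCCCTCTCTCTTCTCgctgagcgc
Rps6, chr4:86857353-86857427, minus strand: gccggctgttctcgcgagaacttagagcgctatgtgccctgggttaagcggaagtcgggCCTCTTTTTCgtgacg
Rps19, chr7:24884532-24884606, plus strand: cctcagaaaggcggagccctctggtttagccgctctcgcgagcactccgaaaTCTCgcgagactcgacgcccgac
These annotated starts differ in how near they lie to a pyrimidine run. Rplp0 and Rpl41 have short runs of 5 and 3 letters there, whereas Rpl14 has 14, Rps12 has 11, and Rpl38, Rplp2 and Rps6 have 10. The run of Rps12 continues past the end of the printed bases. Rpl39 has 8 letters, and Rps19 has 4 at the printed start. At its annotated starts 2 and 3, which are not printed, Rps19 has runs of 4 and 7. A match says only that the letters are present in the window.

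After acute exposure, ribosomal protein transcripts were lower on all 3 days on the rescaled values, whereas as deposited the median member lay above sham on days 3 and 5. On day 2, 2 days after 2 Gy, 48 of 81 members were lower and 0 were higher, where 7.47% of all genes were called lower and 7.37% higher. Members summed to 333 to 391 k (median 359) in acute 2 Gy blood of day 2, against 442 to 697 k (median 590.0) in the acute shams of day 2. All 6 irradiated libraries lay below the 6 shams. The median member differed by -0.50 (log2), against 0.05 for all genes, and 24 members (29.6%) lay below every sham library, against 5.35% of all genes. Large-subunit genes (27 of 50 lower, median -0.48) and small-subunit genes (21 of 31 lower, median -0.52) both held members that fell.

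The 3 members with the largest falls on acute day 2 were Rpl41, Rplp0 and Rpl39. Rpl41 signal was 6.32 to 10.1 k (median 7.35) in acute 2 Gy blood of day 2, against 22.7 to 47.2 k (median 25.3) in the acute shams of day 2 (log2 difference -1.95 ± 0.29, adjusted p = 1.94e-07). Rplp0, the base of the P stalk on the large subunit where elongation factors bind, stood at 11.1 to 14.045 k (median 12.2) in acute 2 Gy blood of day 2, against 28.8 to 43.6 k (median 37.3) in the acute shams of day 2 (log2 difference -1.55 ± 0.20, adjusted p = 2.75e-09). Rpl39 lines the exit tunnel and had 2.28 to 3.43 k (median 3.06) in acute 2 Gy blood of day 2, against 6.97 to 8.10 k (median 7.65) in the acute shams of day 2 (log2 difference -1.36 ± 0.25, adjusted p = 2.1e-05). The 2 groups did not overlap for any of these 3 genes. As deposited the 3 genes were also lower, at -1.47 (adjusted p = 5.01e-05), -1.07 (adjusted p = 1.71e-05) and -0.88 (adjusted p = 0.0053). The acidic stalk proteins Rplp2 (log2 difference -1.13 ± 0.19, adjusted p = 2.44e-06) and Rplp1 (log2 difference -0.81 ± 0.18, adjusted p = 0.00033) fell too; as deposited Rplp1 was not called (-0.34 (adjusted p = 0.156)).

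Smaller differences were measured for other members on that day. Rpl3, which lies close to the peptidyl transferase centre, had 7.26 to 9.16 k (median 8.38) in acute 2 Gy blood of day 2, against 5.10 to 14.3 k (median 11.1) in the acute shams of day 2 (log2 difference -0.23 ± 0.14, adjusted p = 0.334). Rps19 had 5.47 to 6.99 k (median 6.25) in acute 2 Gy blood of day 2, against 2.80 to 8.40 k (median 7.16) in the acute shams of day 2 (log2 difference 0.01 ± 0.16, adjusted p = 0.992), and Rps6, the substrate of S6 kinase, had 8.64 to 10.4 k (median 9.69) in acute 2 Gy blood of day 2, against 6.62 to 15.9 k (median 13.1) in the acute shams of day 2 (log2 difference -0.32 ± 0.16, adjusted p = 0.192). In all 3 genes the groups overlapped. Without acute sham replicate 1 of day 2, a library with low family levels, Rpl3 and Rps6 were called lower, at -0.42 (adjusted p = 0.0163) and -0.48 (adjusted p = 0.0161). Of the pair that binds MDM2, Rpl5 fell (log2 difference -0.66 ± 0.19, adjusted p = 0.00755) and Rpl11 was at -0.33 (adjusted p = 0.211). The call of Rpl5 was lost without acute 2 Gy replicate 4 (adjusted p = 0.0591), as deposited (-0.18 (adjusted p = 0.497)) and per total without 7SL, haemoglobin and mitochondrial genes (-0.27 (adjusted p = 0.498)). Rps27a, whose product is a fusion of ubiquitin and a small-subunit protein, was at -0.50 (adjusted p = 0.0514); it was called without acute 2 Gy replicate 2 or 6, or without sham replicate 1 (adjusted p = 0.0356, 0.0495 and 0.00768). As deposited Rps19 was called higher, at 0.48 (adjusted p = 0.0203), while Rpl3 (0.24 (adjusted p = 0.212)), Rps6 (0.16 (adjusted p = 0.47)) and Rpl11 (0.14 (adjusted p = 0.541)) were above 0 and not called.

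On day 3 after 2.8 Gy, 70 of 81 members were lower and 0 were higher on the rescaled values (6 lower and 17 higher as deposited), where 8.73% of all genes were called lower and 11.8% higher. Members summed to 294, 304 and 309 k in acute 2.8 Gy blood of day 3, against 589 to 659 k (median 653) in the acute shams of day 3. The 3 irradiated libraries lay close together, and 76 members (93.8%) lay below every sham, against 10.3% of all genes. The median member differed by -0.87, a fold of 0.55, against 0.30 for all genes.

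Rpl41 had the largest fall of acute day 3, with signal of 5.20, 5.54 and 5.71 k in acute 2.8 Gy blood of day 3, against 33.0 to 44.4 k (median 39.9) in the acute shams of day 3 (log2 difference -2.85 ± 0.36, adjusted p = 1.66e-09). Rpl39 was at 1.87, 2.09 and 2.15 k in acute 2.8 Gy blood of day 3, against 7.71 to 9.93 k (median 8.67) in the acute shams of day 3 (log2 difference -2.10 ± 0.31, adjusted p = 1.32e-07), and Rplp0 at 11.3, 11.5 and 11.9 k in acute 2.8 Gy blood of day 3, against 39.2 to 50.8 k (median 43.2) in the acute shams of day 3 (log2 difference -1.92 ± 0.25, adjusted p = 2.39e-09). None of the 3 irradiated libraries reached the lowest sham in these genes. Rplp2 fell by 1.73 and Rplp1 by 1.496 on the log2 scale, with adjusted p = 1.04e-08 and 1.06e-07 (limma). Rps29, a zinc-binding protein of the 40S head, was at 4.62, 4.72 and 4.91 k in acute 2.8 Gy blood of day 3, against 14.8 to 16.6 k (median 15.7) in the acute shams of day 3, and again the groups did not overlap. As deposited, the falls of Rpl41, Rplp0, Rpl39 and Rplp2 were smaller but still called, at -1.84 (adjusted p = 1.7e-05), -0.90 (adjusted p = 0.00174), -1.09 (adjusted p = 0.00246) and -0.71 (adjusted p = 0.00854).

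For most other named members of acute day 3 the direction depended on the scaling. Rpl3 signal was 7.398, 7.70 and 7.76 k in acute 2.8 Gy blood of day 3, against 9.10 to 12.1 k (median 10.3) in the acute shams of day 3 after rescaling, and 9.60, 9.97 and 10.2 k in acute 2.8 Gy blood of day 3, against 5.76 to 7.84 k (median 6.59) in the acute shams of day 3 as deposited. Its log2 difference was -0.44 (adjusted p = 0.0664) after rescaling and 0.58 (adjusted p = 0.00481) as deposited. Rps19 was at -0.36 (adjusted p = 0.194) after rescaling and at 0.65 (adjusted p = 0.00509) as deposited, and Rps6 at -0.73 (adjusted p = 0.00275) and 0.28 (adjusted p = 0.192). Rpl11 fell on the rescaled values (log2 difference -0.87 ± 0.21, adjusted p = 0.000862), as did Rpl5 (log2 difference -0.67 ± 0.23, adjusted p = 0.0303) and Rps27a (log2 difference -0.99 ± 0.22, adjusted p = 0.000454). As deposited these 3 genes were at 0.15 (adjusted p = 0.528), 0.35 (adjusted p = 0.197) and 0.03 (adjusted p = 0.912). The call of Rpl5 was lost without any 1 of acute 2.8 Gy replicates 1, 2 and 3 or of sham replicates 3 and 5 (adjusted p = 0.0663 to 0.106).

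By day 5 after 4.1 Gy, 73 of 81 members were lower and 0 were higher on the rescaled values (1 lower and 20 higher as deposited), where 9.12% of all genes were called lower and 9.76% higher. Members summed to 320.4 to 402 k (median 338) in acute 4.1 Gy blood of day 5, against 585 to 671 k (median 622) in the acute shams of day 5. The median member differed by -0.84 (a fold of 0.56), against 0.02 for all genes, and 69 members (85.2%) lay below every sham, against 7.02% of all genes. Rpl39 (log2 difference -1.58 ± 0.25, adjusted p = 9e-07), Rps27 (log2 difference -1.40 ± 0.20, adjusted p = 4.55e-08) and Rps12 (log2 difference -1.39 ± 0.21, adjusted p = 1.73e-07) had the largest falls. Rpl39 signal was 1.51 to 3.36 k (median 2.64) in acute 4.1 Gy blood of day 5, against 6.90 to 8.06 k (median 7.61) in the acute shams of day 5, without overlap, and it was also lower as deposited (-0.63 (adjusted p = 0.0347)). Rps27, a zinc-finger protein of the small subunit, was at 3.65 to 5.69 k (median 4.83) in acute 4.1 Gy blood of day 5, against 12.1 to 13.7 k (median 12.5) in the acute shams of day 5, again without overlap. Rps12, whose values are uncertain because of its pseudogene rows, was at 246 to 599 (median 300.5) in acute 4.1 Gy blood of day 5, against 687 to 1141 (median 845) in the acute shams of day 5 in plain units. As deposited Rps27 and Rps12 were not called, at -0.45 (adjusted p = 0.0581) and -0.44 (adjusted p = 0.0772).

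Rpl41 was closer to sham on acute day 5 than on acute day 3. Its signal was 13.1 to 18.2 k (median 14.8) in acute 4.1 Gy blood of day 5, against 23.4 to 42.2 k (median 31.0) in the acute shams of day 5 (log2 difference -0.98 ± 0.29, adjusted p = 0.0104). The change of the response between the 2 acute days was itself tested, and Rpl41 was the 1 member called (day 5 minus day 3: log2 difference 1.87 ± 0.47, adjusted p = 0.0121), where 1.53% of all genes were called higher. Between acute days 5 and 2, 0 members were called in either direction by limma (13 lower and 2 higher at an unadjusted p under 0.05). Rplp0 was at 13.2 to 23.0 k (median 17.0) in acute 4.1 Gy blood of day 5, against 31.0 to 45.8 k (median 37.9) in the acute shams of day 5 (log2 difference -1.15 ± 0.20, adjusted p = 5.33e-06). Rpl5 (log2 difference -0.84 ± 0.19, adjusted p = 0.000366), Rpl11 (log2 difference -0.89 ± 0.17, adjusted p = 2.16e-05), Rps27a (log2 difference -1.07 ± 0.18, adjusted p = 2.48e-06), Rps19 (log2 difference -0.58 ± 0.16, adjusted p = 0.00578), Rps6 (log2 difference -0.59 ± 0.16, adjusted p = 0.00284) and Rpl3 (log2 difference -0.52 ± 0.14, adjusted p = 0.00493) were all lower on the rescaled values. As deposited the stalk gene Rplp0 was at -0.20 (adjusted p = 0.433), Rpl3 at 0.43 (adjusted p = 0.0104), Rps19 at 0.37 (adjusted p = 0.0551) and Rps6 at 0.36 (adjusted p = 0.0503). Rpl5, Rpl11 and Rps27a were at 0.10 (adjusted p = 0.678), 0.06 (adjusted p = 0.785) and -0.12 (adjusted p = 0.595) as deposited.

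**Figure D1:**
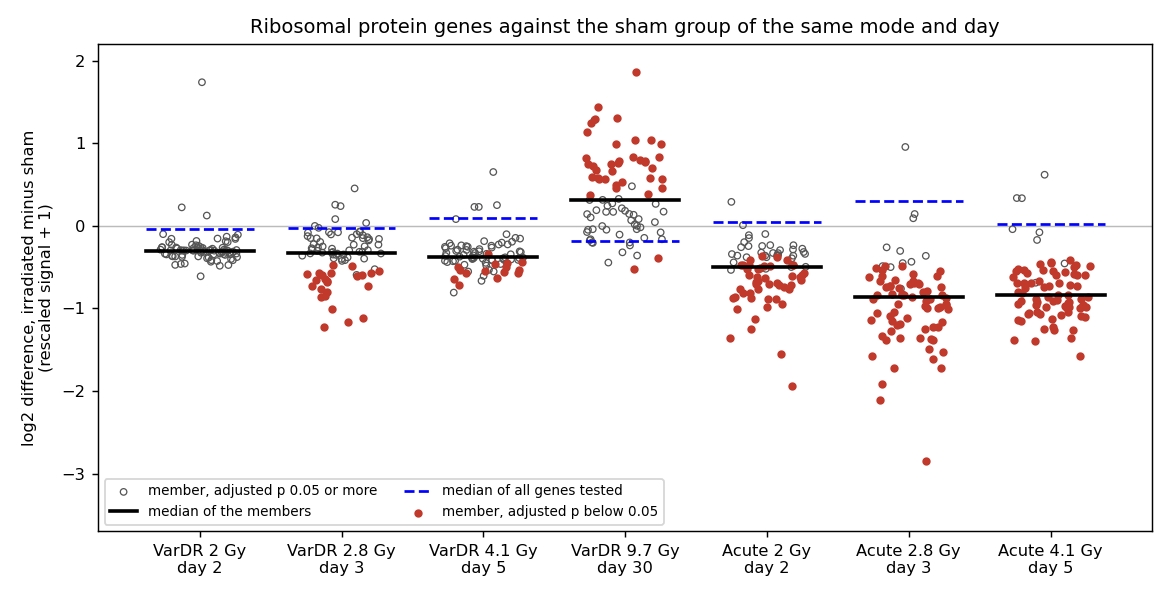
Log2 difference of each tested member (81 points per column), irradiated minus sham, after rescaling to equal medians of ratios; filled points passed limma's adjusted p under 0.05. Most members lie below 0 in the 3 acute comparisons and above 0 only in VarDR blood of day 30; as deposited the acute medians of days 3 and 5 lie above 0, and under 2 other scalings that of VarDR day 30 lies below 0.

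Under the protracted exposure the median differences of the first days were smaller. On VarDR day 2, 0 of 81 members were called by limma in either direction (22 had an unadjusted p under 0.05, and 26 were lower with library weights, which let a library that varies more count less in limma's fit), where 0.744% of all genes were called lower and 2.53% higher. Members summed to 443, 444, 502, 522 and 530.4 k in VarDR 2 Gy blood of day 2, against 547 to 700.1 k (median 592) in the VarDR shams of day 2. All 5 irradiated sums lay below the lowest sham. The median member differed by -0.30, against -0.04 for all genes. Below every sham lay 30 members (37.0%), against 1.14% of all genes. Rplp0 was at 19.5, 22.9, 24.7, 27.9 and 28.6 k in VarDR 2 Gy blood of day 2, against 26.9 to 52.9 k (median 29.5) in the VarDR shams of day 2 (log2 difference -0.48 ± 0.21, adjusted p = 0.268), with overlap at the edge of the groups. Rps6 was at 9.01, 10.1, 11.4, 11.8 and 11.9 k in VarDR 2 Gy blood of day 2, against 12.4 to 14.5 k (median 13.5) in the VarDR shams of day 2, without overlap (log2 difference -0.31 ± 0.16, adjusted p = 0.408). Rps19 was instead at 7.85, 7.86, 7.99, 8.74 and 8.84 k in VarDR 2 Gy blood of day 2, against 6.35 to 7.97 k (median 6.98) in the VarDR shams of day 2 (log2 difference 0.22 ± 0.17, adjusted p = 0.663).

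VarDR blood of day 3 had 24 members lower and 0 higher on the rescaled values, where 5.24% of all genes were called lower and 5.12% higher. Members summed to 449 to 575 k (median 521) in VarDR 2.8 Gy blood of day 3, against 498 to 896 k (median 764) in the VarDR shams of day 3. The groups overlapped, and 2 members (2.47%) lay below every sham, against 1.67% of all genes. The median member differed by -0.33, against -0.03 for all genes. Per total without 7SL, haemoglobin and mitochondrial genes the median was 0.19, with 3 members lower and 1 higher. That scaling shifts all genes of a library alike, and the members' median still lay below that of all genes under it. Shares of all genes called under it are not given here. Of the large subunit 18 members were called, and of the small subunit 6. Rplp0 fell most, at 18.2 to 38.019 k (median 28.4) in VarDR 2.8 Gy blood of day 3, against 35.4 to 96.8 k (median 63.2) in the VarDR shams of day 3 (log2 difference -1.22 ± 0.20, adjusted p = 7.63e-06). Next came Rpl41, at 15.2 to 46.2 k (median 32.6) in VarDR 2.8 Gy blood of day 3, against 34.4 to 102 k (median 60.4) in the VarDR shams of day 3 (log2 difference -1.17 ± 0.29, adjusted p = 0.00369), and Rps12, at -1.12 (adjusted p = 7.05e-05). Rplp2 (log2 difference -0.80 ± 0.19, adjusted p = 0.00204), Rplp1 (log2 difference -0.66 ± 0.18, adjusted p = 0.00713) and Rpl5 (log2 difference -0.73 ± 0.19, adjusted p = 0.0043) were also lower. These 3 were not called per total without 7SL, haemoglobin and mitochondrial genes (-0.29 (adjusted p = 0.236), -0.15 (adjusted p = 0.587) and -0.22 (adjusted p = 0.606)), nor were Rpl41 and Rplp1 after quantile normalization (-0.43 (adjusted p = 0.146) and -0.24 (adjusted p = 0.497)). Rpl3, Rpl11, Rps6, Rps19 and Rps27a were not called, at 0.03, -0.03, -0.20, 0.24 and -0.23 (adjusted p = 0.95, 0.968, 0.562, 0.471 and 0.561).

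The shams of VarDR day 3 were themselves high for these genes. Their median Rplp0 level was 63.2 k, whereas the medians of the other 6 sham groups were 29.5 to 43.2 k. Irradiated VarDR levels of day 3, 18.2 to 38.019 k, reached into the range of those other shams. The part of this difference between sham groups in the result was not tested.

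On VarDR day 5, 15 members were lower and 0 higher, where 3.38% of all genes were called lower and 5.41% higher. This count rested on single libraries. Without irradiated replicate 6, which stood apart, 0 members were lower, 1 was higher and the median was -0.09 (-0.38 with all libraries). With library weights 0 were lower as well, whereas without the libraries with over 0.5% liver signal, which kept replicate 6 as 1 of 2 irradiated libraries, 70 were lower. Without irradiated replicates 1 or 2 the count of lower members was 31 and 26, and without sham replicates 1, 2, 4, 5 or 6 it was 7, 8, 3, 3 and 3. The count of higher members was 1 also without irradiated replicate 4 or sham replicates 1 or 4. Rps27 (log2 difference -0.72 ± 0.20, adjusted p = 0.0119), Rps24 (log2 difference -0.65 ± 0.22, adjusted p = 0.0491) and Rps15a (log2 difference -0.64 ± 0.21, adjusted p = 0.0445) had the largest falls among those called. Without irradiated replicate 6 Rps24 was at -0.20 (adjusted p = 0.49) and Rps15a at -0.20 (adjusted p = 0.468). Rps27 signal was 1.35 to 9.01 k (median 6.97) in VarDR 4.1 Gy blood of day 5, against 7.397 to 10.8 k (median 9.18) in the VarDR shams of day 5, and without irradiated replicate 6 its difference was -0.31 (adjusted p = 0.163). Rpl11 was called as well (log2 difference -0.55 ± 0.17, adjusted p = 0.0259), and was at -0.21 (adjusted p = 0.303) without that library. Rplp0 (-0.35), Rplp1 (-0.21), Rplp2 (-0.16), Rpl3 (-0.25), Rpl5 (-0.10), Rps6 (-0.37), Rps19 (0.08) and Rps27a (-0.48) were not called. Without replicate 6 these 8 genes were at -0.08, 0.12, 0.17, -0.05, -0.28, -0.08, 0.32 and -0.13, in the same order, and again none was called (adjusted p = 0.182 or more).

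After 30 days of protracted exposure more members were higher than lower on the rescaled values, with the opposite split under 2 other scalings. In VarDR 9.7 Gy blood 36 members were higher and 2 lower, where 12.7% of all genes were called higher and 12.5% lower. Members summed to 760.1 to 1086 k (median 855) in VarDR 9.7 Gy blood of day 30, against 483 to 628 k (median 559.5) in the VarDR shams of day 30. Every irradiated library exceeded every sham, and 31 members (38.3%) lay above all 6 shams, against 8.43% of all genes. The median member differed by 0.31 (a fold of 1.24), against -0.18 for all genes. Of 50 large-subunit members 25 were higher (median 0.38), and of 31 small-subunit members 11 (median 0.19). Per total without 7SL, haemoglobin and mitochondrial genes 3 members were higher and 44 lower (median -0.57), and after quantile normalization 3 and 22 (median -0.31). The members' median lay above that of all genes in the former scaling and below it in the latter. Shares of all genes called under these 2 scalings are not given here.

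Rpl41 rose most on day 30, at 88.1 to 142 k (median 102) in VarDR 9.7 Gy blood of day 30, against 19.8 to 48.4 k (median 28.3) in the VarDR shams of day 30 (log2 difference 1.86 ± 0.29, adjusted p = 1.58e-06). Rplp0 was at 80.4 to 137 k (median 98.1) in VarDR 9.7 Gy blood of day 30, against 28.5 to 54.4 k (median 35.7) in the VarDR shams of day 30 (log2 difference 1.44 ± 0.20, adjusted p = 1.62e-07), and Rps29 at 26.7 to 46.2 k (median 29.0) in VarDR 9.7 Gy blood of day 30, against 10.2 to 16.8 k (median 12.2) in the VarDR shams of day 30 (log2 difference 1.302 ± 0.19, adjusted p = 2.87e-07). The groups did not overlap in any of the 3 genes. The acidic stalk genes rose with them: Rplp2 was at 20.6 to 34.1 k (median 22.2) in VarDR 9.7 Gy blood of day 30, against 8.32 to 13.9 k (median 9.62) in the VarDR shams of day 30 (log2 difference 1.24 ± 0.19, adjusted p = 9.14e-07) and Rplp1 at 23.9 to 36.7 k (median 28.6) in VarDR 9.7 Gy blood of day 30, against 10.6 to 16.9 k (median 12.9) in the VarDR shams of day 30 (log2 difference 1.13 ± 0.18, adjusted p = 1.64e-06). Rpl41 was called higher under all 4 scalings, with 1.79 (adjusted p = 4.48e-06) as deposited, 0.60 (adjusted p = 0.0134) after quantile normalization and 0.98 (adjusted p = 5.99e-05) per total without 7SL, haemoglobin and mitochondrial genes. Rplp0 was positive under all 4 but not called after quantile normalization (0.15 (adjusted p = 0.568)), and neither were Rps29 (0.16 (adjusted p = 0.553)), Rplp2 (0.26 (adjusted p = 0.284)) and Rplp1 (0.03 (adjusted p = 0.93)). Per total without 7SL, haemoglobin and mitochondrial genes Rplp2 (0.36 (adjusted p = 0.0612)) and Rplp1 (0.25 (adjusted p = 0.204)) were not called.

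The 2 members that were lower on day 30 were Rpl5 and Rpl7l1. Rpl5 was at 283 to 489.5 (median 350.3) in VarDR 9.7 Gy blood of day 30, against 417 to 689 (median 491) in the VarDR shams of day 30 in plain units (log2 difference -0.52 ± 0.19, adjusted p = 0.0322), with overlap, and Rpl7l1, a paralog of Rpl7, was at -0.39 (adjusted p = 0.00947). The call of Rpl5 was lost without irradiated replicates 1, 3 or 5 or sham replicates 1 or 4 (adjusted p = 0.0537 to 0.103), and that of Rpl7l1 without irradiated replicate 5 (adjusted p = 0.069), which leaves 0 members lower; without each of the other 4 libraries 1 was lower. Rpl11 was at 3.85 to 4.99 k (median 4.26) in VarDR 9.7 Gy blood of day 30, against 3.88 to 5.18 k (median 4.58) in the VarDR shams of day 30 (log2 difference -0.05 ± 0.17, adjusted p = 0.869). Rps6, Rps19, Rps27a and Rpl3 were not called, at 0.00, 0.18, 0.02 and -0.21.

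**Figure D2:**
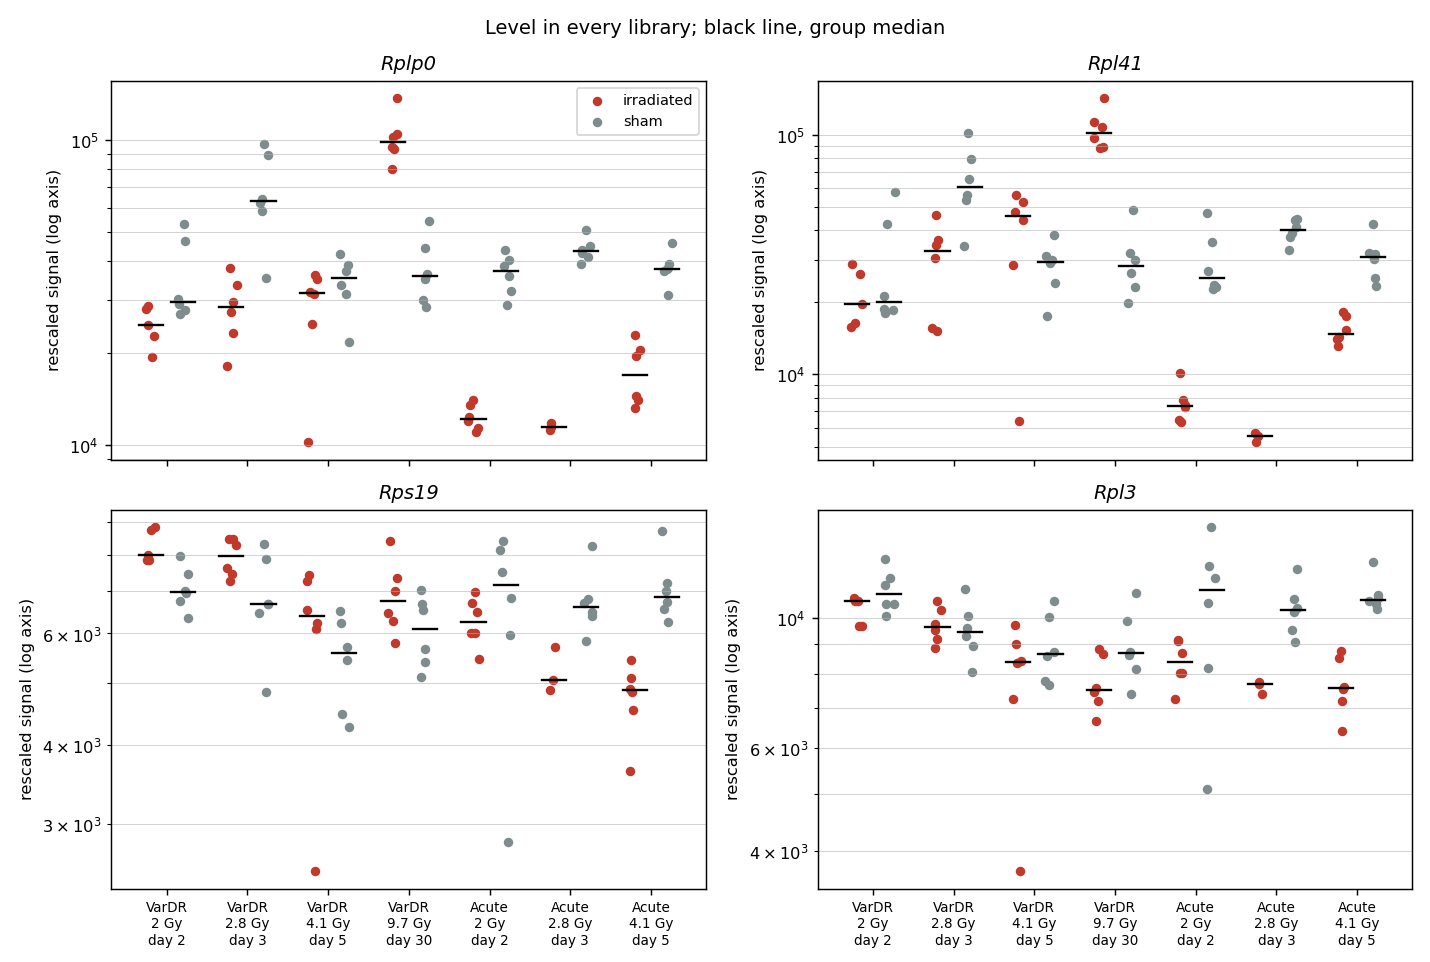
Rescaled signal of Rplp0, Rpl41, Rps19 and Rpl3 in each of the 80 libraries (points, log axis), irradiated left of its sham, with group medians as bars. Rplp0 and Rpl41 separate from sham in acute blood of days 2, 3 and 5 and in VarDR blood of day 30 in opposite directions, while Rps19 and Rpl3 overlap with sham in most groups.

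The direction of the family as a whole depended on how libraries were made comparable. As deposited, the median member of acute day 2 differed by -0.02, with 2 members higher and 9 lower, where 25.4% of all genes were called higher and 4.06% lower. On acute day 3 it was 0.15, with 17 members higher and 6 lower, where 54.8% were higher and 2.78% lower. On acute day 5 it was 0.12, with 20 higher and 1 lower, where 47.2% were higher and 2.02% lower. Deposited sums of the members were 381, 393 and 405 k in acute 2.8 Gy blood of day 3, against 373 to 427 k (median 422) in the acute shams of day 3, and 469.7 to 609.6 k (median 505) in acute 4.1 Gy blood of day 5, against 453 to 511 k (median 482) in the acute shams of day 5. Those sums overlap or nearly meet, unlike the rescaled ones.

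The VarDR comparisons changed less with the deposited values. On VarDR day 2 the median member was at -0.31, with 0 called in either direction by limma, where 2.6% of the 21549 genes tested as deposited were called higher and 0.905% lower. On VarDR day 3 it was -0.31, with 22 members lower and 0 higher, where 4.75% were lower and 5.01% higher. On VarDR day 5 it was -0.39, with 16 lower and 0 higher, where 3.36% were lower and 5.34% higher. On VarDR day 30 it was 0.25, with 30 higher and 3 lower, where 10.7% were higher and 12% lower.

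Set against the median of all genes under the same scaling, the acute medians were negative throughout. All scalings except quantile normalization shift every gene of a library alike on the log2 scale. Similar values under them are therefore largely fixed by the arithmetic, and only quantile normalization could differ freely. On acute day 2 the members' median minus that of all genes was -0.54 after rescaling, -0.52 as deposited, -0.45 after quantile normalization and -0.52 per total without 7SL, haemoglobin and mitochondrial genes. On acute day 3 the same 4 values were -1.17, -1.05, -0.75 and -1.14. On acute day 5 they were -0.86, -0.76, -0.99 and -0.86. VarDR groups of days 2, 3 and 5 gave -0.26, -0.30 and -0.48 after rescaling and were negative under the other 3 scalings too. For VarDR day 30 the values were 0.50, 0.47, -0.22 and 0.35, so the sign turned after quantile normalization.

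**Figure D3:**
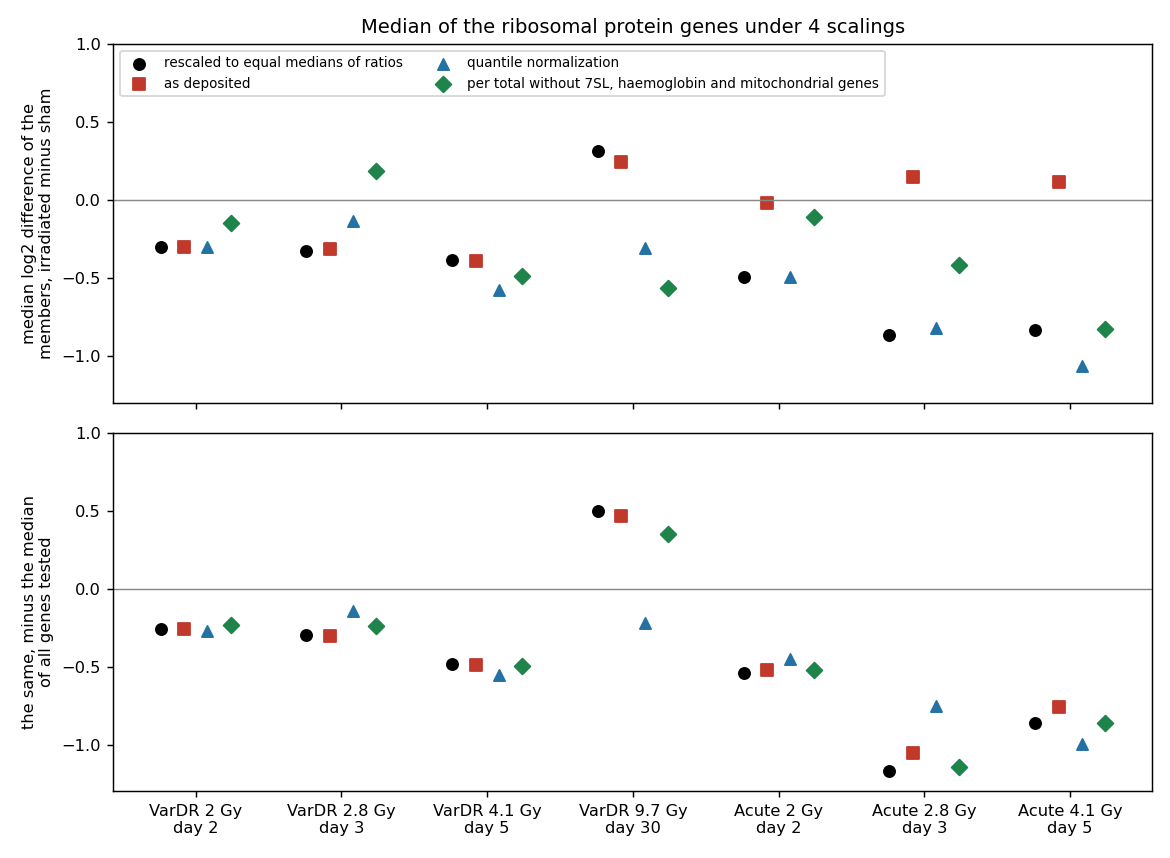
Median log2 difference of the tested members, irradiated minus sham, under 4 scalings (upper panel), and the same minus the median of all genes tested (lower panel), for the 7 comparisons. In the upper panel the values as deposited lie above 0 on acute days 3 and 5. In the lower panel all acute values lie below 0, and only VarDR day 30 has values on both sides of 0. Apart from quantile normalization, the scalings shift all genes of a library alike, so their lower-panel values are similar by construction.

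All scalings except quantile normalization multiply the genes of a library by 1 factor, so the make-up of the family does not depend on the choice among them. Rpl41 made up 1.70% to 2.62% (median 2.05%) in acute 2 Gy blood of day 2, against 3.33% to 10.7% (median 4.80%) in the acute shams of day 2. On acute day 3 it made up 1.71% to 1.88% (median 1.85%) in acute 2.8 Gy blood of day 3, against 5.00% to 7.54% (median 6.11%) in the acute shams of day 3. Every acute library of days 2 and 3 thus had a smaller share of Rpl41 than every sham of its day. On acute day 5 the groups overlapped, at 3.93% to 5.69% against 3.62% to 6.29% in the shams. They also overlapped on VarDR days 2, 3 and 5. Irradiated medians there were 3.92%, 6.22% and 8.78%, against 3.44%, 8.28% and 5.23% in the shams. On VarDR day 30 the share was 11.2% to 13.1% (median 12.1%) in VarDR 9.7 Gy blood of day 30, against 3.52% to 7.72% (median 5.27%) in the VarDR shams of day 30, with every irradiated library above every sham. Rplp0 behaved likewise, with 3.71% to 3.90% (median 3.84%) in acute 2.8 Gy blood of day 3, against 5.95% to 7.73% (median 6.87%) in the acute shams of day 3, and 10.6% to 12.6% (median 11.8%) in VarDR 9.7 Gy blood of day 30, against 5.04% to 8.67% (median 6.87%) in the VarDR shams of day 30. Rpl3 moved the other way: it made up 2.51% to 2.53% (median 2.52%) in acute 2.8 Gy blood of day 3, against 1.47% to 1.84% (median 1.59%) in the acute shams of day 3, and 0.613% to 1.14% (median 0.892%) in VarDR 9.7 Gy blood of day 30, against 1.38% to 1.95% (median 1.64%) in the VarDR shams of day 30. These shares use the values as deposited, and the 3 genes were picked from the extremes of the tests.

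The same point was tested for every member by scaling each library to equal medians of ratios over the members alone. A positive difference then means that a transcript took a larger part of the family. On acute day 3, 13 members were higher within the family and 20 lower, where 46.7% of all genes were called higher and 3.32% lower. Rpl41 (log2 difference -1.98 ± 0.30, adjusted p = 1.19e-07), Rpl39 (log2 difference -1.23 ± 0.22, adjusted p = 7.88e-06) and Rplp0 (log2 difference -1.05 ± 0.21, adjusted p = 2.97e-05) were lowest, and Rps4l (log2 difference 1.80 ± 0.48, adjusted p = 0.00174), Rpl7l1 (log2 difference 0.61 ± 0.19, adjusted p = 0.00832) and Rpl29 (log2 difference 0.57 ± 0.13, adjusted p = 0.000361) highest. Without acute 2.8 Gy replicates 1 or 3 the count of higher members was 7 and 8. On acute day 2, 4 were higher and 12 lower, where 19.3% and 3.53% of all genes were. Rpl41 (-1.43 (adjusted p = 2.25e-06)), Rplp0 (-1.04 (adjusted p = 7.05e-07)) and Rpl39 (-0.85 (adjusted p = 0.000205)) were again lowest, with Rps19 (0.52 (adjusted p = 0.000298)), Rpl29 (0.41 (adjusted p = 0.00249)) and Rpl14 (0.40 (adjusted p = 0.00664)) highest. That call of Rpl14 was lost with only the compared groups (adjusted p = 0.0567) and without the libraries with liver signal (adjusted p = 0.109). On acute day 5, 12 were higher and 13 lower, where 36.6% and 2.37% of all genes were. Rpl39 (-0.80 (adjusted p = 0.000256)), Rps27 (-0.62 (adjusted p = 1.12e-05)) and Rps12 (-0.61 (adjusted p = 0.00593)) were lowest, and Rps4l (1.10 (adjusted p = 0.0205)), Rpl10 (0.73 (adjusted p = 0.00983)) and Rpl29 (0.70 (adjusted p = 1.46e-07)) highest; Rpl10 and Rps12 are uncertain because of pseudogene rows.

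VarDR day 30 had 26 members higher within the family and 19 lower, where 7% and 18.3% of all genes were. Rpl41 (log2 difference 1.57 ± 0.24, adjusted p = 3.63e-06), Rplp0 (log2 difference 1.15 ± 0.17, adjusted p = 1.31e-06) and Rps29 (log2 difference 1.01 ± 0.15, adjusted p = 1.16e-06) were highest. Rpl5 (log2 difference -0.81 ± 0.23, adjusted p = 0.00742), Rpl7l1 (log2 difference -0.67 ± 0.16, adjusted p = 0.00119) and Rpl14 (log2 difference -0.65 ± 0.11, adjusted p = 3.22e-05) were lowest. Without irradiated replicate 4 the count of lower members was 12. Acute day 3 and VarDR day 30 share no library. Of the 20 members lower within the family on acute day 3, 18 were higher on VarDR day 30, which is 90.0% of the acute list and 69.2% of the VarDR list. Of the 13 higher on acute day 3, 8 were lower on VarDR day 30 (61.5% and 42.1%). As a base for these overlaps, 26 of all 81 tested members were higher on VarDR day 30 and 19 were lower. The share of all genes with such a reversal is not given here. Across 78 members with a mean level of at least 100 units, the 2 sets of within-family differences had a Pearson r of -0.77 and a Spearman rho of -0.68. Within the protracted exposure, VarDR day 3 against VarDR day 30 gave -0.82 and -0.82. Acute day 2 against VarDR day 30 gave -0.78 and -0.70. The points are genes, which share libraries and are not independent replicates.

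**Figure D4:**
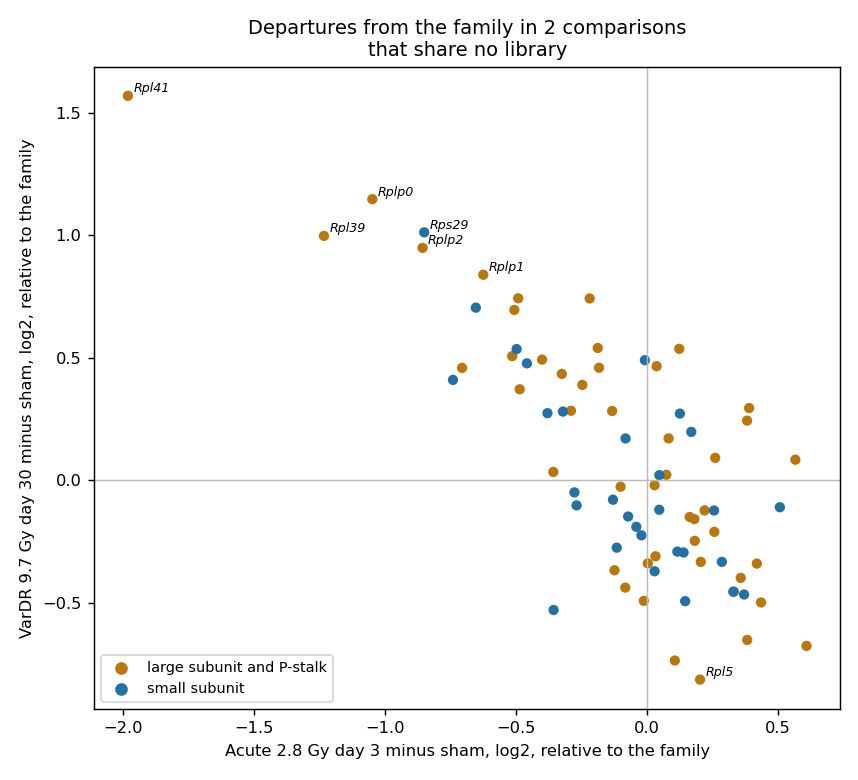
Within-family log2 difference of 78 members on VarDR day 30 against that on acute day 3, irradiated minus sham in both, with names for members far from 0. Rpl41, Rpl39, Rplp0, Rplp2 and Rps29 lie at the upper left (a smaller part of the family after acute exposure, a larger part on VarDR day 30), and members such as Rpl14 and Rpl7l1 at the lower right.

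On the early VarDR days some of the same members differed within the family. VarDR day 3 had 9 members lower and 2 higher, where 1.77% and 8.64% of all genes were. Lowest were Rplp0 (log2 difference -0.90 ± 0.17, adjusted p = 6.5e-05), Rpl41 (log2 difference -0.84 ± 0.24, adjusted p = 0.014) and Rps12 (log2 difference -0.79 ± 0.19, adjusted p = 0.00158); the higher ones were Rps19 (log2 difference 0.56 ± 0.11, adjusted p = 0.000255) and Rpl3 (log2 difference 0.36 ± 0.12, adjusted p = 0.0304). All 9 that were lower on VarDR day 3 were among the 20 of 81 tested members that were lower on acute day 3 (45.0% of that list). Counts of this day rested on single libraries: 4, 5, 4 and 5 members were lower without irradiated replicates 1 or 3 or sham replicates 5 or 6. The count of higher members was 1 without irradiated replicates 2, 3 or 6 or sham replicates 4, 5 or 6, and 4 were higher without sham replicate 1. Rpl41 lost its call without irradiated replicates 1 or 3 or sham replicate 5 (adjusted p = 0.0793, 0.0866 and 0.0644), and Rpl3 in 6 of 12 such fits.

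VarDR day 2 had 1 member higher and 0 lower within the family by limma (2 and 0 at an unadjusted p under 0.05), where 3.93% and 0.0711% of all genes were; the member was Rps19 (log2 difference 0.52 ± 0.12, adjusted p = 0.0027). VarDR day 5 had 2 higher and 1 lower, where 12% and 0.867% of all genes were. These were Rpl10 (log2 difference 1.02 ± 0.24, adjusted p = 0.00143) and Rps19 (log2 difference 0.45 ± 0.11, adjusted p = 0.00404), and Rps27 (log2 difference -0.35 ± 0.12, adjusted p = 0.0338), which was not called without irradiated replicate 6 or sham replicates 2, 5 or 6, so that 0 members were lower. Without irradiated replicate 6, 3 were higher: Rpl10 (0.83 (adjusted p = 0.0166)), Rps19 (0.39 (adjusted p = 0.00724)) and Rpl41 (0.77 (adjusted p = 0.0354)). The call of Rpl10 was lost with its pseudogene rows added (0.19 (adjusted p = 0.302)), with only the compared groups (1.02 (adjusted p = 0.247)) and with library weights (0.74 (adjusted p = 0.0506)). That of Rps19 was lost with only the compared groups (0.45 (adjusted p = 0.456)) and without the libraries with liver signal (0.40 (adjusted p = 0.0558)). Rps19, the gene most often mutated in Diamond-Blackfan anaemia, was called higher within the family in 5 of the 7 comparisons, with the limits just given for VarDR day 5, and not in acute day 5 (0.20 (adjusted p = 0.17)) or VarDR day 30 (-0.11 (adjusted p = 0.51)). Its share of the family was 1.51% to 1.97% (median 1.67%) in VarDR 2 Gy blood of day 2, against 0.965% to 1.36% (median 1.20%) in the VarDR shams of day 2, and 1.66% to 1.85% (median 1.67%) in acute 2.8 Gy blood of day 3, against 0.887% to 1.25% (median 1.06%) in the acute shams of day 3.

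**Figure D5:**
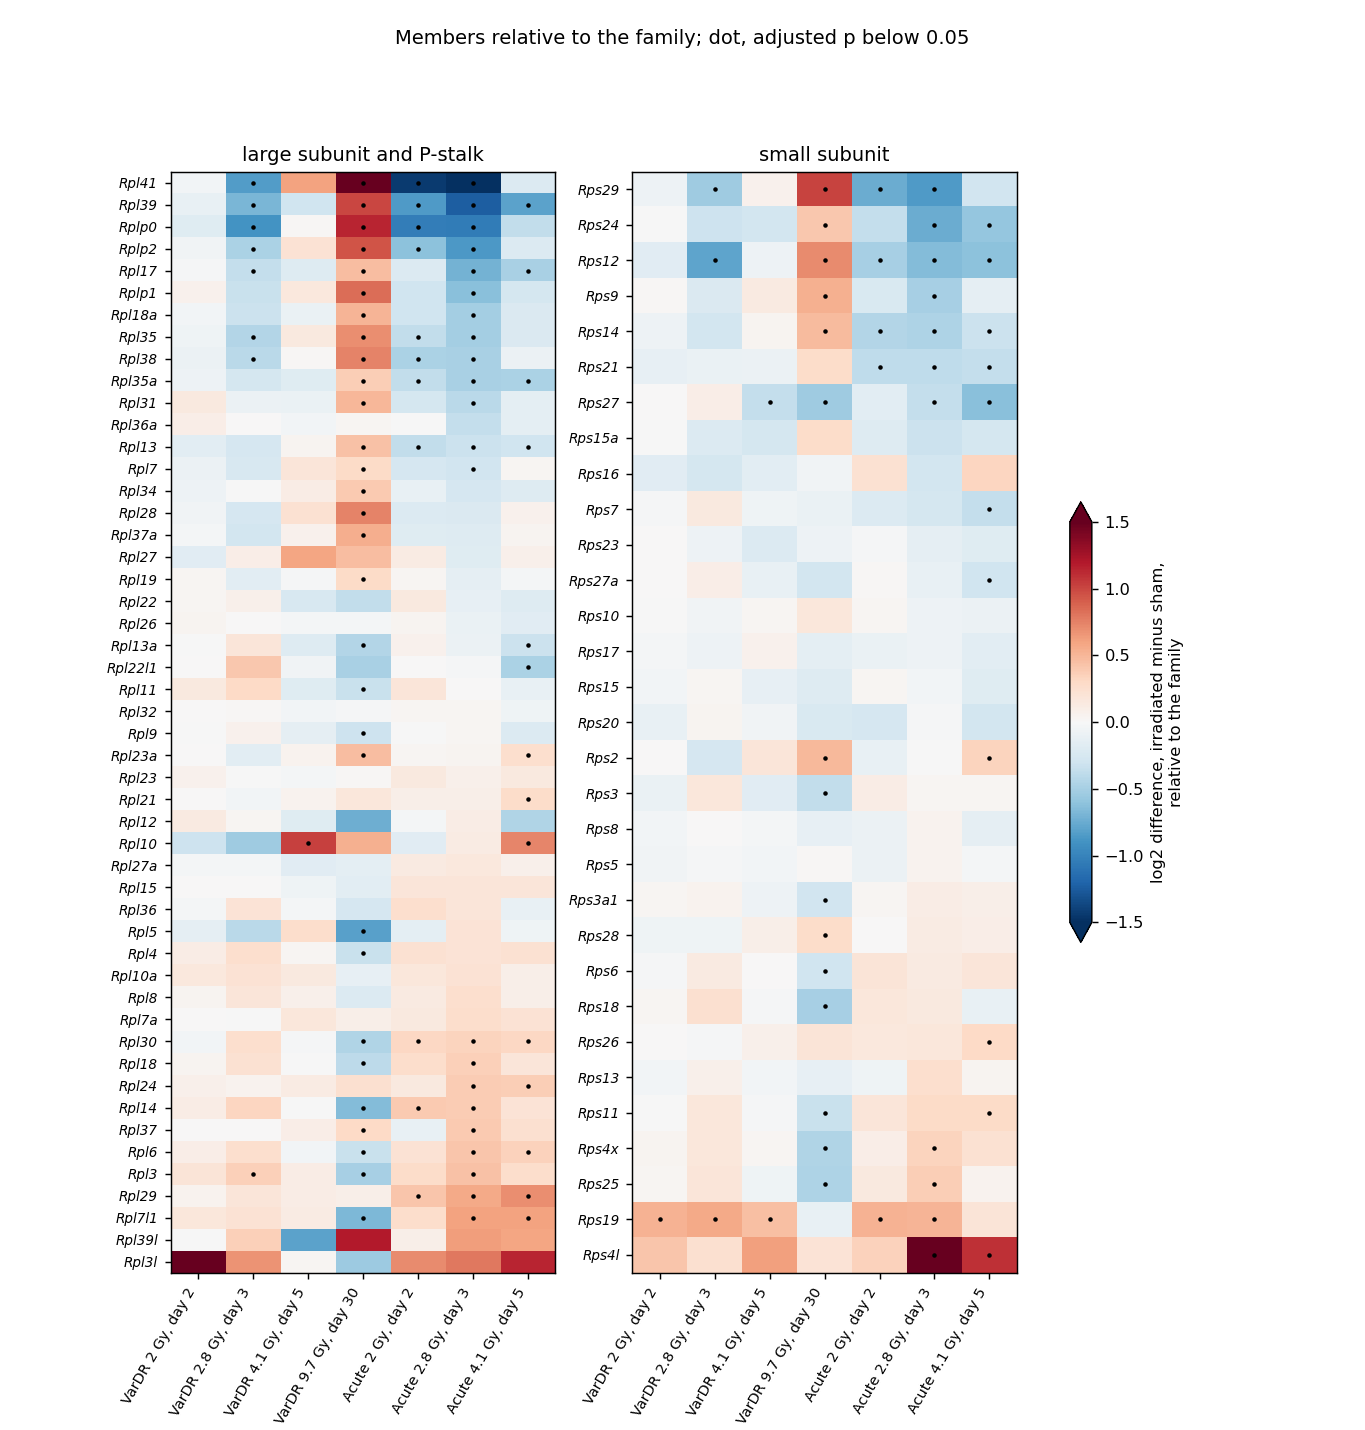
Log2 difference of each tested member within the family, irradiated minus sham, in the 7 comparisons (colour, saturating at 1.5 in either direction). The genes that are low in acute blood of days 2 and 3 and in VarDR blood of day 3 (Rpl41, Rplp0, Rpl39) are high in VarDR blood of day 30.

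Differences between the responses to the 2 exposure types were tested directly at each shared dose and day. On day 2 the acute response was lower for 2 members, where 1.39% of all genes were called lower: Rpl41 (log2 difference -1.61 ± 0.43, adjusted p = 0.0266) and Rplp0 (log2 difference -1.07 ± 0.29, adjusted p = 0.0346). This share of the members lies near that of all genes, and single libraries decided the count. It was 0 without VarDR 2 Gy replicates 1 or 4, VarDR sham replicates 2, 3, 4 or 5, or acute sham replicates 1 or 6, and 1 without VarDR 2 Gy replicate 2, acute 2 Gy replicates 3 or 4 or acute sham replicate 2. As deposited 2 members were higher and 0 lower, and with library weights 25 were lower. Shares of all genes under these 2 settings are not given here.

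On day 3 the acute response was lower for 3 members, where 1.85% of all genes were called lower and 0.659% higher: Rpl41 (log2 difference -1.68 ± 0.47, adjusted p = 0.0286), Rps7 (log2 difference -0.96 ± 0.26, adjusted p = 0.0258) and Rps9 (log2 difference -0.82 ± 0.24, adjusted p = 0.0429). The count was 0 without VarDR sham replicate 1 or any 1 of the 3 acute 2.8 Gy libraries, 1 without VarDR 2.8 Gy replicates 4 or 6, and 5 without VarDR sham replicate 2. As deposited 23 members were higher and 0 lower, and with library weights 45 were lower. Deposited values of acute irradiated blood exceeded those of acute shams over most genes. On day 5 Rps14 alone was called (log2 difference -0.78 ± 0.23, adjusted p = 0.0462), where 1.65% of all genes were called lower. Without VarDR 4.1 Gy replicate 6, the library that stood apart, Rps14 was at -1.08 (adjusted p = 7.79e-06) and 54 members were lower, and with library weights 59. As deposited 30 were higher and 0 lower. For days 3 and 5 the shares of all genes as deposited, with library weights or with libraries left out are not given here. The count was 4, 3 and 2 without VarDR 4.1 Gy replicate 4, VarDR sham replicate 1 and acute 4.1 Gy replicate 3. It was 0 without VarDR 4.1 Gy replicates 1, 2, 3 or 5, VarDR sham replicates 3, 4, 5 or 6, acute 4.1 Gy replicates 1, 2, 5 or 6, or acute sham replicates 1, 2, 3, 4 or 5.

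Within the protracted exposure the response of day 30 exceeded that of day 5 for 38 members, where 6.7% of all genes were called higher, and no member was called lower (0 by limma, also at an unadjusted p under 0.05), where 5.82% of all genes were. The largest differences were those of Rpl39 (log2 difference 1.95 ± 0.36, adjusted p = 0.000154), Rplp0 (log2 difference 1.79 ± 0.28, adjusted p = 2.02e-05) and Rpl41 (log2 difference 1.63 ± 0.42, adjusted p = 0.00546). After quantile normalization 8 members were higher, and per total without 7SL, haemoglobin and mitochondrial genes 6 were higher and 2 lower. For these scalings the shares of all genes are not given here. Without VarDR 4.1 Gy replicate 6 of day 5, 30 were higher and 0 lower, with Rpl39 at 1.45 (adjusted p = 9.84e-05), Rplp0 at 1.52 (adjusted p = 7.1e-05) and Rpl41 at 1.16 (adjusted p = 0.0233).

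Across the 7 comparisons with sham, 54 members were called lower in at least 3, 4 in at least 5, and 35 in both directions. The shares of all genes with such totals are not given here, so these are only tallies of the calls above. Rpl39l, Rpl3l and Rps4l, paralogs with low levels in these libraries, were called in none on the rescaled values. As deposited Rps4l was called higher on acute days 3 (1.93 (adjusted p = 0.000133)) and 5 (1.27 (adjusted p = 0.00192)). On acute day 3 it was also called per total without 7SL, haemoglobin and mitochondrial genes (1.40 (adjusted p = 0.0244)) and with library weights (0.83 (adjusted p = 0.0254)). Rpl22l1, the paralog of Rpl22, was lower on acute day 3 (log2 difference -0.88 ± 0.30, adjusted p = 0.0249) and acute day 5 (log2 difference -1.25 ± 0.24, adjusted p = 3.49e-05), and as deposited it was at 0.13 (adjusted p = 0.7) on day 3. The day 3 call was lost without any 1 of the 3 acute 2.8 Gy libraries (adjusted p = 0.0578 to 0.0895). Among the members with a RefSeq promoter window that were tested, the 28 with a pyrimidine run at the annotated start had a median within-family difference of -0.18 on acute day 3 and 0.24 on VarDR day 30. The 32 without one had 0.05 and -0.09. The ranges overlapped widely. On acute day 3 they were -1.23 to 0.38 with a run and -1.98 to 0.79 without. On VarDR day 30 they were -0.65 to 1.00 and -0.81 to 1.57. Medians with and without a run were -0.05 and 0.03 on acute day 2 and -0.13 and 0.06 on acute day 5. On VarDR day 2 the medians were 0.00 and 0.00, on VarDR day 3 -0.04 and 0.04, and on VarDR day 5 -0.02 and -0.03. A link between the run and the response was not tested. Rpl41 and Rplp0, which moved most, are among those without a run of at least 8 letters at the annotated start. A shorter run, such as the 5 letters of Rplp0, was counted as none. Whether their mRNAs begin with a TOP motif was not tested.

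Other genes of translation were tested in the same fit on the rescaled values. The list held 20 genes with known or likely TOP mRNAs outside the member rule (elongation and initiation factors, poly(A)-binding protein, Tpt1, Naca and ribosomal genes such as Rpsa, Rack1 and Fau). On acute day 2, 11 were lower and 0 higher (median -0.29), on acute day 3 13 and 0 (median -0.50), and on acute day 5 10 and 1 (median -0.38). On VarDR days 2, 3 and 5 0, 6 and 3 were lower and none was higher, and on VarDR day 30 7 were higher and 2 lower. Pabpc1, the cytoplasmic poly(A)-binding protein, fell on acute days 2 (log2 difference -3.81 ± 0.37, adjusted p = 1.64e-13) and 3 (log2 difference -4.18 ± 0.45, adjusted p = 1.03e-11). Tpt1, a classical TOP gene, fell on VarDR day 3 (log2 difference -1.59 ± 0.26, adjusted p = 5.66e-06) and rose on VarDR day 30 (log2 difference 1.49 ± 0.26, adjusted p = 6.29e-06).

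Genes that make ribosomes were tested in the same fit on the rescaled values. Of 32 biogenesis genes, 11 were lower and 1 higher on VarDR day 30, where 12.5% of all genes were lower and 12.7% higher. Among the lower ones were Polr1a, the largest subunit of RNA polymerase I (log2 difference -0.87 ± 0.18, adjusted p = 0.000136), and Bop1, which is needed to process the large-subunit rRNA (log2 difference -0.75 ± 0.16, adjusted p = 0.00015). The 1 higher gene was Dkc1, the pseudouridine synthase of box H/ACA particles (log2 difference 0.81 ± 0.19, adjusted p = 0.0005). On acute days 2, 3 and 5, 3, 5 and 6 were lower (where 7.47%, 8.73% and 9.12% of all genes were), including the snoRNP protein Nop56 on day 3 (log2 difference -0.76 ± 0.16, adjusted p = 0.000207) and day 5 (log2 difference -0.63 ± 0.13, adjusted p = 0.000125). Of 16 transcription and TOP-control genes, 4 were higher and 4 lower on VarDR day 30. The lower ones included the transcription factors Sp1 (log2 difference -0.87 ± 0.14, adjusted p = 2.46e-06) and Gabpa (log2 difference -0.81 ± 0.19, adjusted p = 0.000772), and the TOP-binding Larp1 (log2 difference -0.56 ± 0.16, adjusted p = 0.00664). At most 1 was higher and 2 lower in any other comparison. Eif4e, the cap-binding protein, fell on acute day 3 (log2 difference -0.96 ± 0.22, adjusted p = 0.000631) and VarDR day 3 (log2 difference -0.68 ± 0.18, adjusted p = 0.0062) and rose on VarDR day 30 (log2 difference 1.11 ± 0.18, adjusted p = 2.75e-06). Its inhibitor Eif4ebp1 rose on VarDR days 5 (log2 difference 0.79 ± 0.20, adjusted p = 0.00437) and 30 (log2 difference 1.06 ± 0.20, adjusted p = 2.78e-05) and on acute day 5 (log2 difference 0.71 ± 0.20, adjusted p = 0.00512). The 78 genes of the mitochondrial ribosome, a separate machine, had 2 members lower and 0 higher on acute day 3 (median 0.03), and 11 lower and 6 higher on VarDR day 30 (median -0.18), where 12.5% of all genes were lower and 12.7% higher.

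Red cell markers were measured beside the members. The list of 13 such markers had 11 lower on acute day 2 (median -4.38), 13 on acute day 3 (median -5.75) and 4 on acute day 5 (median -0.71). On VarDR days 2, 3 and 5 there were 0, 7 and 0 lower, and on VarDR day 30 12 were higher (median 1.59). Their summed level was 13.8 to 20.2 k in acute 2.8 Gy blood of day 3, against 1475 to 2758 k in the acute shams of day 3, and 3645 to 6936 k in VarDR 9.7 Gy blood of day 30, against 863 to 2909.9 k in the VarDR shams of day 30. None of the 13 was at 0 in any library. The 6 haemoglobin genes, which globin removal had depleted, had medians of -7.76 on acute day 3 and 1.66 on VarDR day 30. The part of red cell transcripts in the differences of the members was not tested.

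Markers of several other blood cell types shifted too. Of 15 B cell markers, 15, 15 and 15 were lower on acute days 2, 3 and 5 and 11, 10, 15 and 15 on VarDR days 2, 3, 5 and 30. Their summed level was 7.12 to 9.36 k in acute 4.1 Gy blood of day 5, against 55.6 to 65.1 k in the acute shams of day 5. Of 13 platelet markers, 11 to 13 were higher in every comparison, with medians of 1.03 to 2.193. Of 12 neutrophil markers, 1 to 10 were higher. Liver markers were also higher on acute day 3 (24 of 25), with a summed level of 34.6 to 531 k in acute 2.8 Gy blood of day 3, against 1.45 to 59.0 k in the acute shams of day 3. The part of these shifts in the differences of the members was not tested.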

How the data were processed

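The deposited table holds gene-level signal, normalized by the authors by a step not given in the sources used here. Tools listed in the submitters' processing notes are DESeq2, sleuth, kallisto 0.44.0 and bcl2fastq 2.19, and GRCm38 is the build listed there. Members and gene lists were chosen with earlier results of these data known. Of 82 value columns, 80 matched a sample title, and 2 that matched none were left out. Rows whose gene names had become dates (26, at most 0.471% of a library) were left out too. Libraries were rescaled to equal medians of ratios. Log2(value + 1) of 21101 genes with at least 10 in at least 3 libraries was fitted with limma 3.58.1 (R 4.3.3), with all 14 groups in 1 fit, a trended and robust variance, and Benjamini-Hochberg adjustment over all genes tested. The script was tested on simulated data. Alternatives were deposited values, quantile normalization, totals without 7SL, haemoglobin and mitochondrial genes, other filters and pseudocounts, library weights, compared groups only, pseudogene rows added and libraries left out.

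Named genes were 9 fixed ones (Rplp0, Rplp1, Rplp2, Rps6, Rpl3, Rpl5, Rpl11, Rps19 and Rps27a), paralogs with an l or l1 suffix, the 3 members with the largest called difference in each direction and comparison, and the 2 genes of smallest p per direction in the other lists; 1 such gene of the translation list is not reported here. Transcript lengths came from GENCODE M21. Column totals are of normalized signal, so the depth behind a value is unknown and no counting interval is given.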

Additional observations from a re-analysis of the deposited data

Results flagged for a closer look

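In 13 groups of 4 to 6 libraries, the highest or lowest library was compared with the others by its gap to the nearest one relative to the range (Dixon's criterion). Chance alone marks about 1 in 20 groups. Over single members, 115 of 1053 combinations of a member and a group had a library apart. The VarDR 4.1 Gy library of day 5, replicate 6, was apart in its median log2 level of the members, 10.4, the lowest of its group. It was also lowest for Rplp1 (3.47 k units), Rps6 (3.11 k), Rps19 (2.52 k), Rps27 (1.35 k) and Rps27a (1.04 k). Among the VarDR shams of day 5, replicate 3 was lowest for Rplp1 (9.30 k) and Rplp2 (6.16 k), and replicate 5 highest for Rpl11 (5.32 k).

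On day 3, VarDR 2.8 Gy replicate 1 was lowest for Rpl5, at 237 units, and VarDR sham replicate 1 had the lowest median log2 level of the members, 12.3. In VarDR 9.7 Gy blood of day 30, replicate 4 was highest for Rplp2 (34.1 k) and Rps29 (46.2 k), and sham replicate 2 of that day was highest for Rps29 (16.8 k). In acute 4.1 Gy blood of day 5, replicate 3 was highest for Rps12, at 599 units. Acute sham replicate 1 of day 5 was highest for Rps6 (14.5 k), Rpl3 (12.4 k) and Rpl5 (798 units), and for the members' share of the signal without 7SL, haemoglobin and mitochondrial genes (4.37%). Acute sham replicate 3 of day 5 was highest for Rplp1 (18.7 k), and acute sham replicate 1 of day 2 lowest for Rpl5 (294 units).

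Differences between the responses of exposures or days were tested directly. The acute response was lower than the VarDR response for 2 members on day 2, 3 on day 3 and 1 on day 5, of 81 tested, where 1.39%, 1.85% and 1.65% of all genes were called lower. These few calls lie near the background. Leaving out single libraries brought each of the 3 counts to 0. As deposited 2, 23 and 30 members were higher and 0 lower. Deposited values of acute irradiated blood exceeded those of acute shams over most genes, and the shares of all genes for these deposited counts are not given here. The VarDR response of day 30 was higher than that of day 5 for 38 members, where 6.7% of all genes were. The acute response of day 5 was higher than that of day 3 for 1 member, where 1.53% of all genes were, so this share lies near the background.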

How the results depend on the processing

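Each count and median was recomputed under 10 other settings and with each library left out in turn. Counts in this section are of members only, without the shares of all genes under the same setting. Over 145 values of single genes, of which 79 were called, 2945 such alternatives were computed: 2678 kept the direction and the side of the threshold, 100 lost the call with the same sign, 47 gained one with the same sign, and 18 turned the sign of a value called under one of the 2 settings. The other 102 turned the sign of a value called under neither, 54 of them under another setting and 48 with a library left out. A pseudocount of 0.1 moved no count beyond 1.5 times. As deposited, against sham there were 2 members higher and 9 lower on acute day 2 (median -0.021), 17 higher and 6 lower on acute day 3 (median 0.15), and 20 higher and 1 lower on acute day 5 (median 0.12). Response differences as deposited were 2 higher and 0 lower for acute minus VarDR on day 2, 23 and 0 on day 3 and 30 and 0 on day 5, and 5 higher for acute day 5 minus day 2. Per total without 7SL, haemoglobin and mitochondrial genes, there were 1 higher and 3 lower on VarDR day 3, 9 lower on VarDR day 5, 3 higher and 44 lower on VarDR day 30, 10 lower on acute day 2, and 1 higher and 27 lower on acute day 3. Medians under that scaling were -0.15 on VarDR day 2, 0.19 on VarDR day 3, -0.57 on VarDR day 30 and -0.42 on acute day 3. Its response differences were 7 lower for acute minus VarDR on day 3, 6 higher and 2 lower for VarDR day 30 minus day 5, and 1 lower for acute day 5 minus day 2. After quantile normalization there were 10 lower on VarDR day 3, 46 lower on VarDR day 5 and 3 higher and 22 lower on VarDR day 30, with medians of -0.31 on VarDR day 30 and -1.07 on acute day 5. Response differences after quantile normalization were 12 lower for acute minus VarDR on day 3, 5 lower on day 5, 8 higher for VarDR day 30 minus day 5 and 4 lower for acute day 5 minus day 2.

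With library weights there were 26 lower on VarDR day 2, 39 on VarDR day 3, 0 on VarDR day 5, 4 on VarDR day 30 and 75 on acute day 2, and 1 higher on acute day 3. Weighted response differences were 25, 45 and 59 lower for acute minus VarDR on days 2, 3 and 5, 25 higher for VarDR day 30 minus day 5, 2 lower for acute day 5 minus day 2 and 4 higher for acute day 5 minus day 3. Within the family the weighted counts were 3 lower on VarDR day 2, 7 higher and 15 lower on VarDR day 3, 0 lower on VarDR day 5, 14 higher and 19 lower on acute day 2, 21 higher on acute day 3, and 22 higher and 27 lower on acute day 5. Without the low-value filter there were 5 lower on VarDR day 5, 1 lower on VarDR day 30, 1 higher on acute day 2 and 1 lower for acute minus VarDR on day 2, and within the family 5 higher and 14 lower on VarDR day 3 and 8 higher on acute day 2. A filter on a mean of at least 1 gave 1 higher on acute day 2. Rps12l1, which the main filter had removed, was at 166 and 759 units in acute 2 Gy replicates 2 and 4 of day 2. Its median in that group was 0, and its highest value in the acute shams of day 2 was 0. With only the compared groups there were 0 lower on VarDR day 5, and within the family 0 higher and 0 lower on VarDR day 5 and 2 higher on acute day 2. Without the 20 libraries with over 0.5% liver signal there were 70 lower on VarDR day 5, 0 lower for acute minus VarDR on day 2, 2 higher on day 5, and 73 higher and 1 lower for VarDR day 30 minus day 5. Within the family that setting gave 5 lower on VarDR day 3, 4 lower on VarDR day 5, and 2 higher and 7 lower on acute day 2. It kept 2 irradiated libraries and 3 shams of VarDR day 5, and was not run for acute day 3, where 1 irradiated library remained. With pseudogene rows added to their members there were 2 lower for acute minus VarDR on day 5 and 1 higher within the family on VarDR day 5.

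With each library left out in turn, counts ranged over 0 to 1 higher and 0 to 31 lower on VarDR day 5 and 0 to 2 lower on VarDR day 30. For acute minus VarDR they were 0 to 3 lower on day 2, 0 to 5 on day 3 and 0 to 54 on day 5. Within the family they were 1 to 4 higher and 4 to 13 lower on VarDR day 3, 0 to 1 lower on VarDR day 5, 12 to 20 lower on VarDR day 30 and 7 to 13 higher on acute day 3. Of the 18 values that were called on one side and changed sign, 14 were from acute blood as deposited: on day 3 Rpl11 (0.15), Rpl22l1 (0.13), Rpl3 (0.58), Rpl5 (0.35), Rpl7l1 (0.75), Rps19 (0.65), Rps27a (0.029) and Rps6 (0.28), and on day 5 Rpl11 (0.061), Rpl3 (0.43), Rpl5 (0.10), Rpl7l1 (0.78), Rps19 (0.37) and Rps6 (0.36). On VarDR day 30 Rps19 (-0.70) and Rps27a (-0.86) turned per total without 7SL, haemoglobin and mitochondrial genes, and Rps27a (-0.53) after quantile normalization, and on VarDR day 5 Rps19 (-0.65) turned without the libraries with liver signal. Sign changes with no call on either side included Rpl3 and Rpl7l1 on acute day 2 as deposited (0.24 and 0.23) and Rps19 on VarDR day 30 after quantile normalization (-0.44). The cause was not tested for any of these changes. No paired analysis was possible because the titles carry no replicate numbers that pair libraries of different groups. The files give normalized signal without read counts, so counting error is unknown, and paralogs of low signal are the least certain.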
